A study of Mus musculus with 8 samples.

Results

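The proteasome genes of the mouse adrenal gland were described here across genotype and ACTH treatment, with the core particle set against its caps and activators. Members were all gene symbols that begin with Psma to Psmg followed by a number and that held at least 80 estimated counts summed over the 8 libraries. Of 50 symbols of this form among the 18846 in the files, 48 were members: 8 Psma, 10 Psmb, 7 Psmc, 14 Psmd, 4 Psme, 1 Psmf and 4 Psmg genes. Psmb11 (46 counts), the thymus-specific beta subunit, and Psme2b (19 counts) were left out. The members with the fewest counts were Psma8 (165), the testis-type alpha subunit, Psmc3ip (597) and Psmb9 (816). Psmc3ip matches the symbol pattern but encodes a cofactor of meiotic recombination and no proteasome subunit, so it was counted as a member and under its symbol with the cap, but not among the cap subunits. All 48 members passed the low-count filter that left 15361 genes for testing.

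RNA was sequenced from 8 adrenal glands of 129SVEV mice, 1 gland per library. The genotypes were wild type and Siah1a-/-, the latter lacking an E3 ubiquitin ligase, an enzyme that marks proteins with ubiquitin for the proteasome. In each genotype 2 mice were untreated and 2 had been given adrenocorticotropic hormone (ACTH), the pituitary hormone that drives the cortex to make steroids, by intraperitoneal injection (100 µg/kg) with harvest 1 hour later. The sex labels give 1 male and 1 female animal in every group. No vehicle injection is named in the labels, so ACTH and the injection itself cannot be told apart. The whole gland was used, so more cells of a type and more RNA per cell cannot be told apart in these values.

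The proteasome is the main protease for ubiquitin-tagged proteins. Its core particle is a barrel of stacked rings: Psma genes encode the outer alpha rings, which gate the entrance, and Psmb genes the inner beta rings, which hold the proteolytic sites. The regulatory cap binds ubiquitin chains and removes them with its Psmd subunits, and its ring of Psmc ATPases unfolds the substrate and feeds it into the core. Psme genes encode other activators that can dock in place of this cap, Psmf1 encodes an inhibitor, and Psmg genes and some Psmd genes encode chaperones that assemble the particle without staying in it. Interferons induce Psmb8, Psmb9 and Psmb10, which replace the constitutive catalytic subunits and favour peptides for class I antigen presentation.

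The libraries held 8020111 to 29568950 estimated counts, and the members took 0.544% to 0.757% of them. All 6 cortex markers listed (Star, Cyp11a1, Cyp11b1, Hsd3b1, Nr5a1, Mc2r) were counted, with a sum of 24205 to 43497 CPM (counts relative to library size, after scaling for composition). Several libraries stood apart or went against a label. In the untreated wild-type gland labelled male, the female-specific transcript Xist was at 388 CPM and the Y-linked gene Ddx3y at only 3.06 CPM. Its label was still used as given in the fits and in the pairs matched by sex label. In the same library 5 kidney markers summed to 1353 CPM against at most 8.69 CPM elsewhere. A sum of 59908 CPM of 5 liver markers in ACTH-treated wild type labelled female compared with at most 664 CPM elsewhere, and 338 CPM of 3 neuronal markers in ACTH-treated knockout labelled male with at most 22.8 CPM elsewhere. Siah1a was still counted in the knockout, at 17.4 to 25.2 CPM beside 26.1 to 33.1 CPM in wild type (edgeR adjusted p = 0.383), and the files do not show which exons these counts cover.

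Promoters were compared because most core and cap genes stood higher in the same libraries, as the values further on give. RefSeq windows (GRCm38.p6, the mm10 assembly) of 250 bases before to 50 after the gene start were found for 40 of 48 members and 27025 genes in all, and both strands were searched for motifs, of which 4 are given. CCAAT, the NF-Y box, was in 14 of the 40 members (35.0%) and 41.1% of all genes. TGACNNNGC, the antioxidant response element core bound by NFE2L1 and NFE2L2, was in 6 (15.0%) and 13.99%. GAAANNGAA, the core of the interferon-stimulated response element, was in 7 (17.5%) and 9.76%, and TGACGTCA, the cAMP response element, in 0 and 2.03%. Psmb8, Psmb9 and Psmb10 were not among the 7 members with GAAANNGAA. The share of members holding each of the 4 motifs was not tested against that of all genes, and the gap was largest for GAAANNGAA. The first 4 letters of TGACNNNGC and TGACGTCA are the same, and no matches overlapped in the sequences printed.

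Stretches from 150 to 36 bases before the start of 4 members are shown, for 3 whose knockout libraries all stood above wild type and for Psmb5 as a catalytic gene with the antioxidant core, 5′ to 3′ on the gene's strand, with motif letters in capitals.
Psma6 (chr12:55384072-55384186, plus strand): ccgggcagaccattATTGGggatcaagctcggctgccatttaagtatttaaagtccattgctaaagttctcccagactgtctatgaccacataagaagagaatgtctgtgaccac
Psmb3 (chr11:97703284-97703398, plus strand): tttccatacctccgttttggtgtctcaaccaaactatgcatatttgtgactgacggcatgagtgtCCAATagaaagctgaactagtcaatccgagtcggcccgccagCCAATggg
Psmb5 (chr14:54618031-54618145, minus strand): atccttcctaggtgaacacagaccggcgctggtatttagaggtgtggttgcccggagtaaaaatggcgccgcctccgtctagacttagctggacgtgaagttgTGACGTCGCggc
Psmd4 (chr3:95042650-95042764, minus strand): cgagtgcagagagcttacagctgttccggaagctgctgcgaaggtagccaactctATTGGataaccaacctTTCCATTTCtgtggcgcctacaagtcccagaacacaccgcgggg
The capitals begin 136 bases before the start in Psma6 (CCAAT read from the other strand), 85 and 43 bases in Psmb3 (CCAAT), 47 bases in Psmb5 (antioxidant core), and 95 and 79 bases in Psmd4 (CCAAT and GAAANNGAA, both read from the other strand). None of the other 3 stretches held the antioxidant core. Such matches describe letters in a window and were not tested as sites.

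Levels per gene length set the constitutive core above its cap. The deposited RPKM (reads relative to transcript length and library size) were summed over the transcripts of each symbol and averaged over the 8 libraries. The 14 constitutive core genes lay between 83.04 RPKM (Psmb2) and 229 RPKM (Psmb7) with a median of 158 RPKM, and the 17 cap subunits between 47.3 RPKM (Psmd3) and 139 RPKM (Psmc1) with a median of 86.9 RPKM. Within each library the core median was 1.68 to 2.05 times the cap median, 1.83 ± 0.113 on average (SD over 8 libraries), so the core stood above the cap in every library of every group. The 6 ATPases had a median of 90.6 RPKM and the 11 other cap subunits 76.6 RPKM. Among the alpha subunits Psma6 was highest at 226 RPKM and Psma3 lowest at 86.0 RPKM, apart from Psma8 at 0.612 RPKM.

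Activators and accessory genes spread more widely. Psme1 and Psme2, whose products form the interferon-inducible activator ring together, stood at 158 and 144 RPKM, a level within the range of the constitutive core. Psme3, the nuclear activator, stood at 36.6 RPKM, and Psme4, a large single-chain activator, at 23.8 RPKM. The inhibitor Psmf1 stood at 8.33 RPKM. Chaperones were lower than the subunits they assemble: the cap chaperones Psmd5, Psmd10 and Psmd9 stood at 26.1, 19.1 and 10.7 RPKM, and Psmg2, Psmg1, Psmg4 and Psmg3 at 22.5, 22.0, 18.3 and 11.9 RPKM. Psmb10, Psmb8 and Psmb9 stood at 13.9, 13.8 and 6.43 RPKM. Over the 8 libraries the coefficient of variation in RPKM was smallest for the cap scaffold Psmd2 (9.82%), Psmd7 (10.1%) and Psme2 (10.3%), and largest for Psma8 (114%), Psmb9 (59.8%), Psmc3ip (54.3%) and Psmg4 (52.8%).

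**Figure D1:**
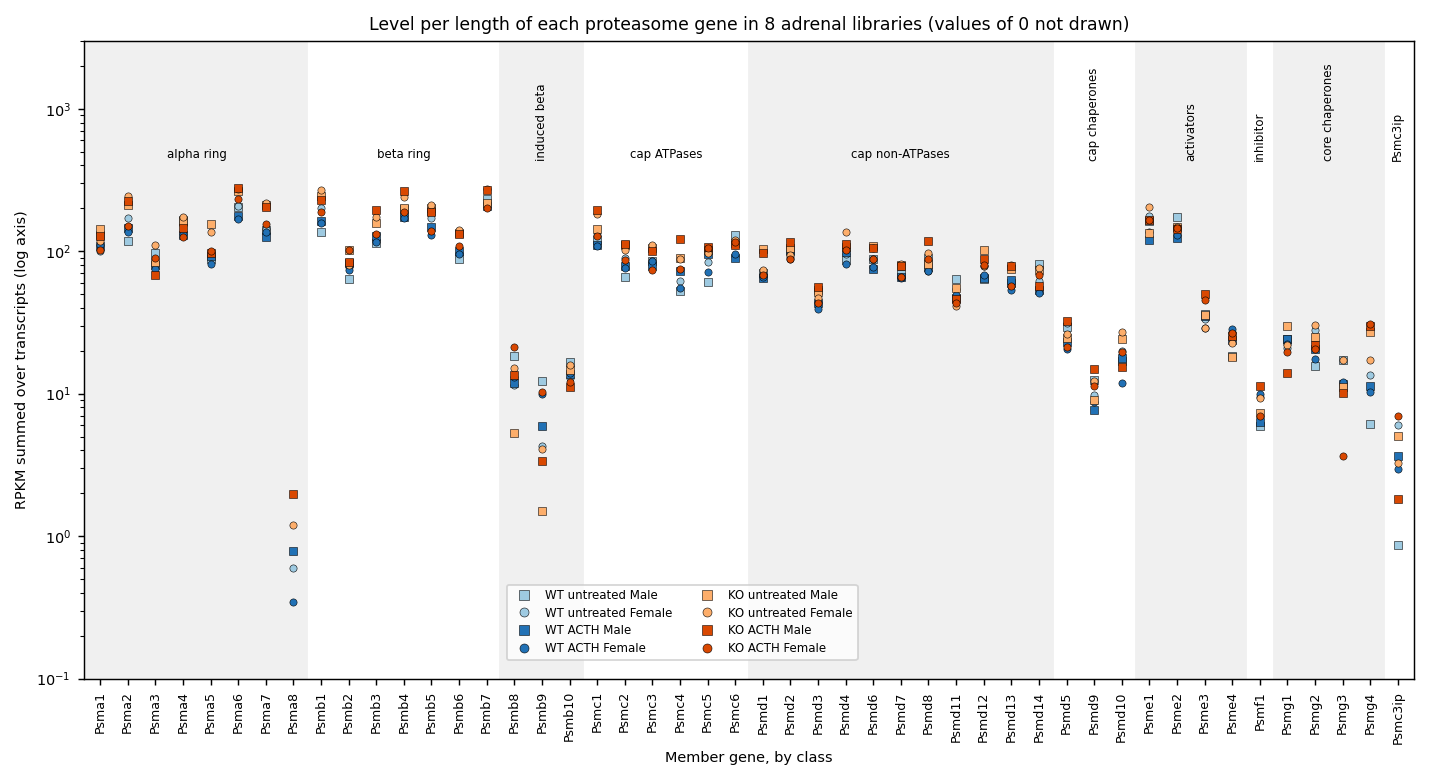
RPKM of each member gene (log axis) in each of the 8 libraries, grouped by class, with colour for genotype and treatment and squares for libraries labelled male. The constitutive core genes lie between 83.04 and 229 RPKM on average, while Psmb8, Psmb9, Psmb10, the inhibitor and the chaperones lie at 26.1 RPKM or below.

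Among the constitutive catalytic subunits, Psmb5 and Psmb6 stood above every wild-type library in 3 or more of the knockout libraries, and Psmb7 did not. Values per library are in CPM, each pair labelled male, then female. Psmb5 (chromosome 14, 54614120 to 54617995), which carries the chymotrypsin-like site, stood at 187 and 170.1 CPM in untreated and 151 and 148 CPM in ACTH-treated wild type, and at 213 and 212 CPM in untreated and 198 and 142 CPM in ACTH-treated knockout glands. Of the knockout libraries, 3 stood above every wild-type library while the ACTH-treated knockout library labelled female was the lowest of all 8, so the genotypes overlapped. Psmb6, with the caspase-like site, stood at 102 and 115 CPM in untreated and 122 and 129 CPM in ACTH-treated wild type, and at 168 and 168 CPM in untreated and 166 and 131 CPM in ACTH-treated knockout glands. All 4 knockout libraries lay above all 4 of wild type, the one labelled female after ACTH only just. Psmb7, with the trypsin-like site, stood at 249 and 236 CPM in untreated and 237 and 269 CPM in ACTH-treated wild type, and at 254 and 309.8 CPM in untreated and 317 and 229 CPM in ACTH-treated knockout glands, and its genotypes overlapped. The genotype means were 164 ± 17.9 CPM for wild type against 191 ± 33.8 CPM for knockout glands (SD, n = 4) for Psmb5, 117 ± 11.7 CPM for wild type against 158 ± 18.1 CPM for knockout glands (SD, n = 4) for Psmb6 and 248 ± 15.4 CPM for wild type against 278 ± 42.6 CPM for knockout glands (SD, n = 4) for Psmb7. The fitted differences were a log2 difference of 0.21 (SE 0.14, edgeR adjusted p = 0.546) for Psmb5, a log2 difference of 0.44 (SE 0.15, edgeR adjusted p = 0.276) for Psmb6 and a log2 difference of 0.16 (SE 0.16, edgeR adjusted p = 0.706) for Psmb7, none past the threshold.

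Their interferon-inducible counterparts did not share this order. Psmb9, which replaces Psmb6, stood at 10.9 and 3.94 CPM in untreated and 5.63 and 10.4 CPM in ACTH-treated wild type, and at 1.46 and 3.82 CPM in untreated and 3.27 and 9.65 CPM in ACTH-treated knockout glands. Each knockout library was below its wild-type counterpart of the same treatment and sex label (4 of 4 pairs), but the groups overlapped, since the ACTH-treated knockout library labelled female reached 9.65 CPM. Psmb8, which replaces Psmb5, stood at 25.2 and 16.1 CPM in untreated and 16.9 and 20.9 CPM in ACTH-treated wild type, and at 7.91 and 21.6 CPM in untreated and 20.1 and 30.5 CPM in ACTH-treated knockout glands, with both the lowest and the highest value in knockout libraries. Psmb10, which replaces Psmb7, stood at 23.4 and 18.8 CPM in untreated and 20.5 and 23.1 CPM in ACTH-treated wild type, and at 22.6 and 23.5 CPM in untreated and 17.003 and 17.9 CPM in ACTH-treated knockout glands. The fitted genotype differences were a log2 difference of -1.03 (SE 0.70, edgeR adjusted p = 0.58) for Psmb9, a log2 difference of -0.10 (SE 0.40, edgeR adjusted p = 0.947) for Psmb8 and a log2 difference of -0.10 (SE 0.24, edgeR adjusted p = 0.902) for Psmb10. The sign for Psmb8 was negative in the fit although its knockout mean of 20.04 CPM was not below the wild-type mean of 19.8 CPM, and it was positive with limma-voom (0.13) and without the wild-type libraries rich in kidney or liver markers (0.14).

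As a share of each catalytic pair in RPKM, the induced subunit was the minor one in every library. Psmb9 made up 1.11% to 12.1% of the sum of Psmb9 and Psmb6, with a mean of 5.79%. The lowest share was in the untreated knockout library labelled male and the highest in untreated wild type labelled male. Psmb10 made up 3.93% to 6.69% of its pair with Psmb7, mean 5.77%. Psmb8 made up 2.57% to 13.3% of its pair with Psmb5, mean 7.62%, from the untreated knockout library labelled male to the ACTH-treated knockout library labelled female. The pair with Psmb7 thus varied least between libraries. Macrophages and lymphocytes express these subunits strongly. The sum of 5 macrophage markers was 111 to 248 CPM in wild type and 74.1 to 166 CPM in the knockout, and that of 7 lymphocyte markers 1.81 to 4.70 CPM and 2.19 to 10.8 CPM. Their part in these shares was not tested.

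**Figure D2:**
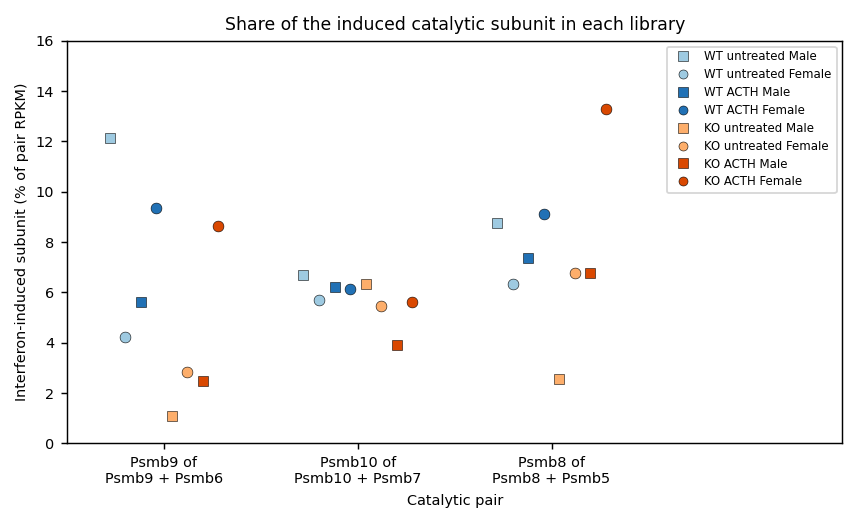
Share of the interferon-induced subunit in each catalytic pair (percent of the pair's RPKM) in the 8 libraries, with colour for genotype and treatment and squares for libraries labelled male. Shares of Psmb9 spread from 1.11% to 12.1% and those of Psmb8 from 2.57% to 13.3%, while Psmb10 stayed between 3.93% and 6.69%.

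Across the whole family, knockout glands stood higher than wild type for most core and cap genes, without any member passing edgeR's test. The average comparison of knockout with wild type (edgeR's quasi-likelihood test over 15361 genes with Benjamini-Hochberg adjustment) called 0 of 48 members, where 4 genes in all were called (0.0260%), and limma-voom also called 0. DESeq2 called 4 members as higher, Psma6, Psma7, Psmc4 and Psmg4 (lowest adjusted p = 0.0146 for Psma6), where it called 2.21% of all genes as higher. At an unadjusted p under 0.05, edgeR gave 14 members as higher and 0 as lower, against 5.33% of all genes as higher. With 1 library left out this count of 14 was 4 without untreated wild type labelled male, 5 without untreated knockout labelled female, 7 without untreated knockout labelled male, 5 without ACTH-treated knockout labelled male and 10 to 17 without each of the others, and it was 4 without both wild-type libraries rich in kidney or liver markers. The log2 fold change was above 0 for 41 members (85.4%) and for 46.5% of all genes tested. Its median was 0.28 over the members and -0.04 over all genes.

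By role, most classes had medians between 0.30 and 0.44, and the induced beta subunits, the activators, the inhibitor and the core chaperones lay lower. The 7 alpha subunits other than Psma8 were all above 0 with a median of 0.44, the 7 constitutive beta subunits were all above 0 with a median of 0.32, and the 3 induced beta subunits were all below 0 with a median of -0.10. In the cap, all 6 ATPases were above 0 with a median of 0.42 and 10 of the 11 other subunits with a median of 0.30. Psmd11, a scaffold subunit of the lid, was the exception at -0.20. Taken as symbols, core (Psma and Psmb, 18 genes) and cap (Psmc and Psmd, 21 genes) had medians of 0.32 and 0.32, and the 4 activators 0.12. The 3 cap chaperones had a median of 0.31, and the 4 core chaperones 0.07, with Psmg4 and Psmg2 above 0 and Psmg1 and Psmg3 below. For the 14 constitutive core genes and the 17 cap subunits the medians were 0.38 and 0.32, and with limma-voom those of the symbol sets were 0.25 and 0.32. No test between classes was made.

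**Figure D3:**
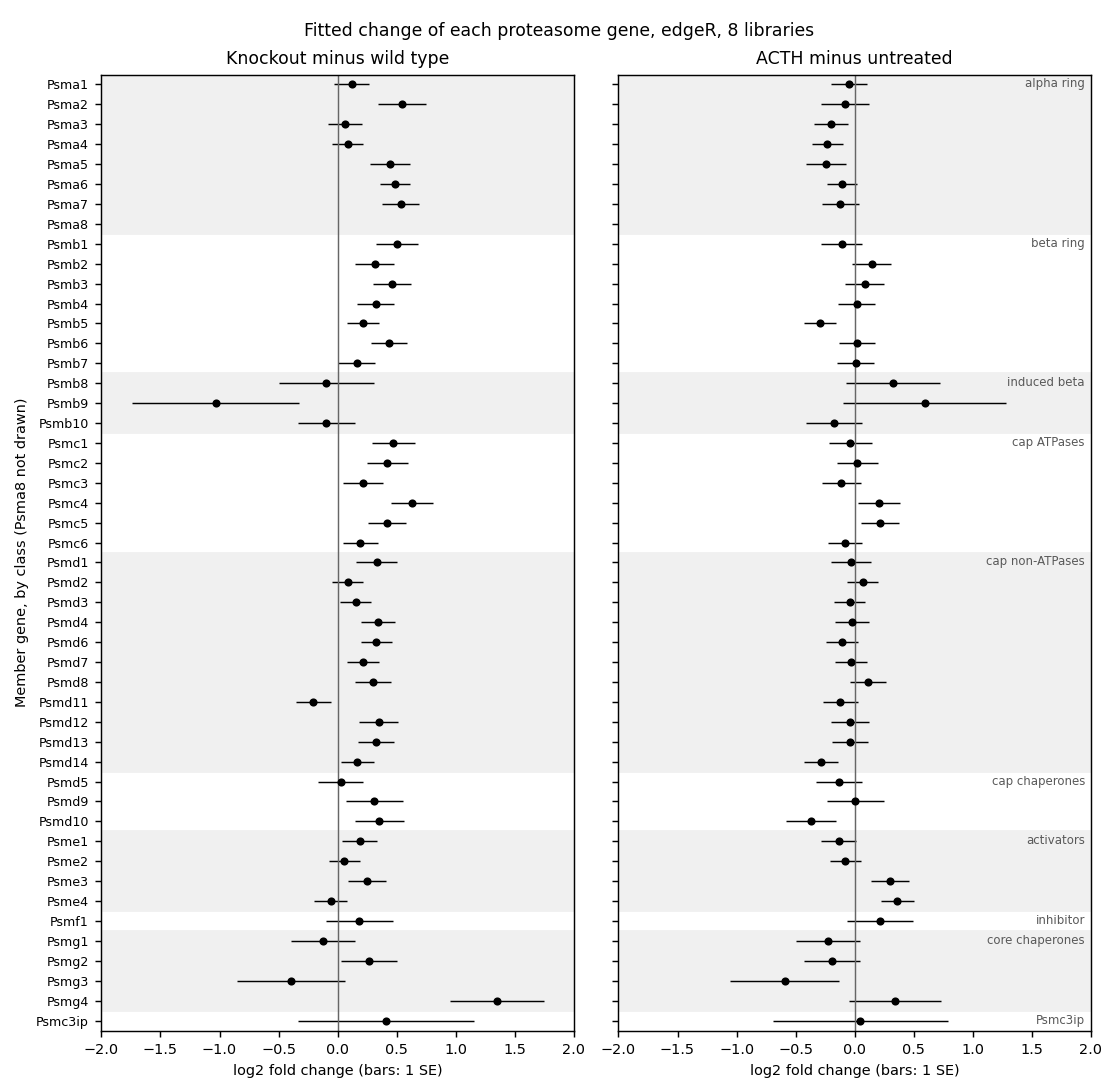
Fitted log2 fold change of each member (points) with 1 standard error (bars) for knockout minus wild type and for ACTH minus untreated, from edgeR on 8 libraries, with Psma8 left out for its low counts. Of the 47 members drawn, 40 lie to the right of 0 for genotype and 18 for ACTH, and no member passed the test in either.

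In 11 members all 4 knockout libraries stood above all 4 wild-type libraries (22.9%, against 4.21% of all genes tested), and in 0 members below (against 4.71%). These were Psma5, Psma6 and Psma7 of the alpha ring, Psmb3 and Psmb6 of the beta ring, the ATPases Psmc4 and Psmc5, the cap subunits Psmd4, Psmd6 and Psmd12, and the chaperone Psmg4. Without ACTH-treated knockout labelled female the number was 20 (41.7%, against 7.04% of all genes), and without both wild-type libraries rich in kidney or liver markers it was 18 (37.5%, against 7.74%). Leaving out each library in turn gave 11 to 20. Fewer libraries overlap less by construction, so these numbers cannot fall below 11, and each was read against its own share of all genes.

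Psmg4 (chromosome 13, 34162964 to 34178172, mm10), a chaperone of alpha ring assembly, had the largest fitted difference and low counts. It stood at 3.76 and 8.16 CPM in untreated and 7.06 and 6.99 CPM in ACTH-treated wild type, and at 17.6 and 10.4 CPM in untreated and 18.9 and 19.4 CPM in ACTH-treated knockout glands. The means were 6.49 ± 1.90 CPM for wild type against 16.6 ± 4.19 CPM for knockout glands (SD, n = 4), and every knockout library exceeded the highest wild-type library, at 8.16 CPM. The fitted value was a log2 difference of 1.35 (SE 0.40, edgeR adjusted p = 0.217), and its adjusted p over the alternatives to edgeR's main settings ran from 0.0382 to 0.610. Untreated wild type labelled male, at 3.76 CPM, was the lowest.

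Psmc4, an ATPase of the cap ring (chromosome 7, 28041702 to 28050092), stood at 83.9 and 102 CPM in untreated and 122 and 104 CPM in ACTH-treated wild type, and at 156 and 147 CPM in untreated and 213 and 126 CPM in ACTH-treated knockout glands. The groups did not overlap, though only 4.12 CPM separated the highest wild-type library from the lowest knockout library, the one labelled female after ACTH. The means were 103 ± 15.5 CPM for wild type against 160.3 ± 37.1 CPM for knockout glands (SD, n = 4), a log2 difference of 0.63 (SE 0.18, edgeR adjusted p = 0.207). Psmc5, another ATPase of the ring, had means of 118 ± 23.3 CPM for wild type against 156 ± 8.73 CPM for knockout glands (SD, n = 4), and its ACTH-treated knockout library labelled female was not the low one at 157 CPM.

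Psma6 (chromosome 12, 55384222 to 55418459) and Psma7 (chromosome 2, 180036367 to 180042464) are alpha subunits. Psma6, whose upstream stretch is printed above, stood at 224 and 236 CPM in untreated and 205 and 217 CPM in ACTH-treated wild type, and at 319 and 316 CPM in untreated and 332 and 267 CPM in ACTH-treated knockout glands. The knockout libraries began at 267 CPM where wild type ended at 236 CPM. Its means were 220.4 ± 12.96 CPM for wild type against 309 ± 28.3 CPM for knockout glands (SD, n = 4), a log2 difference of 0.48 (SE 0.13, edgeR adjusted p = 0.196), which was the lowest adjusted p of all members. Psma7 stood at 148 and 158 CPM in untreated and 141 and 169 CPM in ACTH-treated wild type, and at 244 and 243 CPM in untreated and 234 and 174 CPM in ACTH-treated knockout glands, with 3 knockout libraries close together and the one labelled female after ACTH near wild type. Its means were 154 ± 12.1 CPM for wild type against 224 ± 33.8 CPM for knockout glands (SD, n = 4), a log2 difference of 0.53 (SE 0.16, edgeR adjusted p = 0.216).

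Psma5, also of the alpha ring (chromosome 3, 108256926 to 108279952), separated the genotypes mainly in untreated glands. It stood at 119 and 129.8 CPM in untreated and 132 and 129.7 CPM in ACTH-treated wild type, and at 229 and 192 CPM in untreated and 143 and 143 CPM in ACTH-treated knockout glands. Both untreated knockout libraries were far above the rest, and both ACTH-treated ones stood 11.1 and 11.5 CPM above the highest wild-type library. The fitted difference was 0.76 (SE 0.20) in untreated and 0.13 in ACTH-treated glands on the log2 scale, and the interaction of genotype and treatment was -0.63, which did not pass (edgeR adjusted p = 1). Psmb3, a structural beta subunit, stood at 93.6 and 98.8 CPM in untreated and 109.7 and 112 CPM in ACTH-treated wild type, and at 139.9 and 147 CPM in untreated and 171 and 112 CPM in ACTH-treated knockout glands. Its groups were separated by 0.58 CPM, the smallest gap of the 11, between the ACTH-treated libraries labelled female, and its fitted value was a log2 difference of 0.46 (SE 0.16, edgeR adjusted p = 0.278).

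Among the cap subunits with separate groups, Psmd4 is a ubiquitin receptor of the cap, and its means were 143 ± 11.2 CPM for wild type against 182 ± 21.5 CPM for knockout glands (SD, n = 4). Psmd6 and Psmd12, lid subunits, had means of 125 ± 8.19 CPM for wild type against 158 ± 16.2 CPM for knockout glands (SD, n = 4) and of 141 ± 16.7 CPM for wild type against 179 ± 25.4 CPM for knockout glands (SD, n = 4). The gaps were 3.56, 4.10 and 1.92 CPM in the order Psmd4, Psmd6 and Psmd12. Psmd11 went the other way, at 124 and 109 CPM in untreated and 96.1 and 112 CPM in ACTH-treated wild type, and at 116 and 82.95 CPM in untreated and 96.8 and 88.9 CPM in ACTH-treated knockout glands. Its groups overlapped, and its fitted value was a log2 difference of -0.20 (SE 0.15, edgeR adjusted p = 0.611).

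The lowest fitted differences between genotypes after Psmb9 were those of Psmg3 and Psmd11. Psmg3 stood at 15.99 and 11.3 CPM in untreated and 11.5 and 13.3 CPM in ACTH-treated wild type, and at 11.2 and 16.9 CPM in untreated and 10.3 and 3.60 CPM in ACTH-treated knockout glands, and the value rested on the 3.60 CPM of the ACTH-treated knockout library labelled female. Its fitted value was a log2 difference of -0.40 (SE 0.46, edgeR adjusted p = 0.76). Psma8 was at 0 in 3 libraries and at most 4.06 CPM in any. A count of 0 allowed up to 0.353, 0.199 and 0.230 CPM in those libraries (3 counts, counting error only), so its fitted changes, with standard errors of 2.02 for genotype and 3.56 for ACTH, carry no direction.

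The remaining core and cap subunits gave fitted genotype differences between 0.06 (Psma3) and 0.55 (Psma2). Psma2 and Psmb1 had differences of 0.55 and 0.51, but their ACTH-treated knockout library labelled female lay within the wild-type range. Psmc1 (0.47), Psmc2 (0.42), Psmd1 (0.33), Psmd13 (0.32), Psmb4 (0.32), Psmb2 (0.32), Psmd8 (0.30), Psmc3 (0.22), Psmd7 (0.21), Psmc6 (0.19), Psmd14 (0.17), Psmd3 (0.15), Psma1 (0.12), Psma4 (0.09) and Psmd2 (0.09) completed the set, in order of size. Among the chaperones outside the values above, Psmd10 was at 0.35, Psmd9 at 0.31, Psmg2 at 0.27, Psmd5 at 0.03 and Psmg1 at -0.12, and Psmc3ip was at 0.41 with a standard error of 0.75. In each of these the genotypes overlapped.

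Read by library, the members stood high in 3 of the 4 knockout glands. For each of the 47 members counted in every library, the log2 CPM was taken relative to its own mean over the 8 libraries. The median was 0.21 and 0.18 in the untreated knockout libraries labelled male and female, and 0.22 in the ACTH-treated one labelled male. It was -0.06 in ACTH-treated knockout labelled female, and -0.14, -0.14, -0.15 and -0.08 in the wild-type libraries. In pairs of matched treatment and sex label the median knockout excess was 0.37 and 0.32 in untreated glands and 0.39 in ACTH-treated glands labelled male, but 0.03 in those labelled female. The highest value of 17 members was in ACTH-treated knockout labelled male, and that of 11 in each untreated knockout library. The lowest value of 17 members was in untreated wild type labelled male, and that of 11 in ACTH-treated wild type labelled male.

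**Figure D4:**
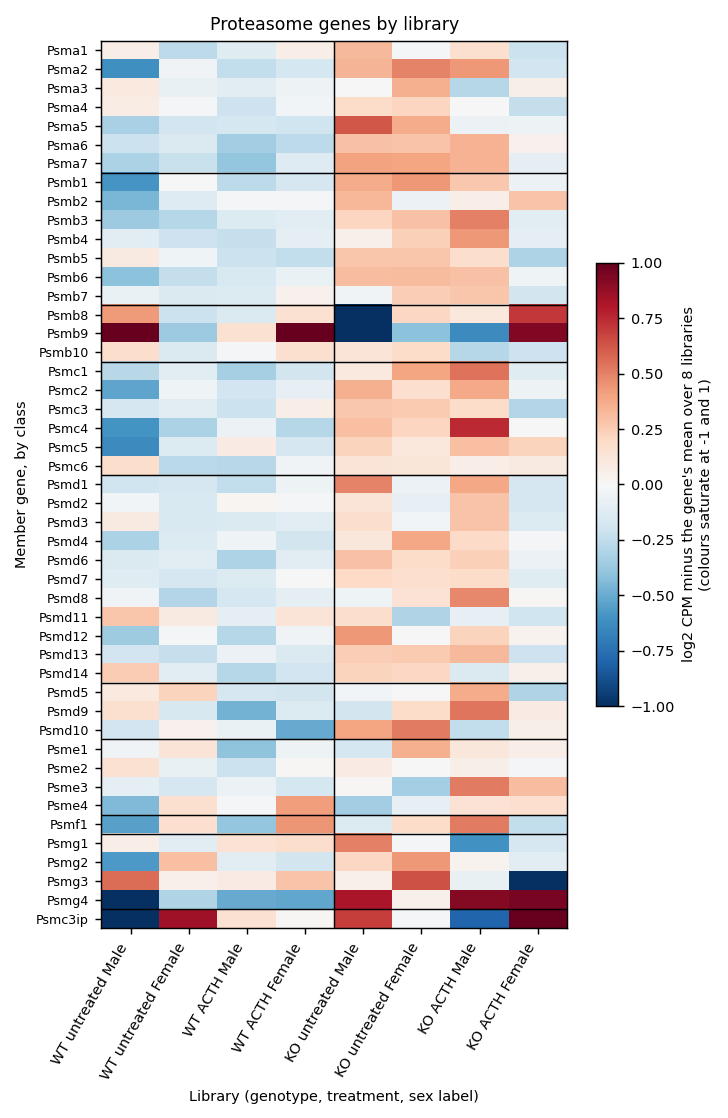
Log2 CPM of each of 47 members (rows, by class) minus the gene's mean over 8 libraries (columns, wild type left of the line), red for higher and blue for lower. Red prevails in 3 knockout columns, and the ACTH-treated knockout column labelled female resembles wild type with a median of -0.06.

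Markers of the adrenal medulla were high in the same 3 knockout libraries, but did not follow the members in every library. The sum of Th, Dbh, Pnmt, Chga and Chgb, which mark catecholamine-producing chromaffin cells, was 7369 and 6029 CPM in the untreated knockout and 6344 CPM in the ACTH-treated knockout library labelled male. It was 1800 CPM in ACTH-treated knockout labelled female, and 1998, 2774, 3991 and 2465 CPM in wild type. The same 3 knockout libraries were thus high in medulla markers and in proteasome genes, and none of the 5 markers was at 0 in any library. Of the other 5 libraries, ACTH-treated wild type labelled male had the highest medulla sum (3991 CPM). Its member median of -0.15 was almost equal to the -0.14 of untreated wild type labelled male, where the medulla sum was 1998 CPM. For the 14 constitutive core genes the median was -0.19 in ACTH-treated and -0.27 in untreated wild type labelled male. For the 17 cap subunits it was -0.17 and -0.16. Which of these libraries was lowest thus depended on the set of genes. All 5 had a fitted genotype difference above 0, with a median of 0.93 and a lowest edgeR adjusted p of 0.214, while DESeq2 called Chga and Pnmt as higher. The part of medullary cells in the proteasome values was not tested. The sum of the 6 cortex markers was 40253 to 43497 CPM in those 3 libraries and 24205 to 39855 CPM in the other 5. The markers did not all share this order. Cyp11a1 stood at 3942 to 4916 CPM in those 3 libraries. It reached 6889 CPM in untreated wild type labelled female and 5840 CPM in ACTH-treated wild type labelled male. Its fitted genotype difference was -0.29, while those of the other 5 markers were above 0.

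**Figure D5:**
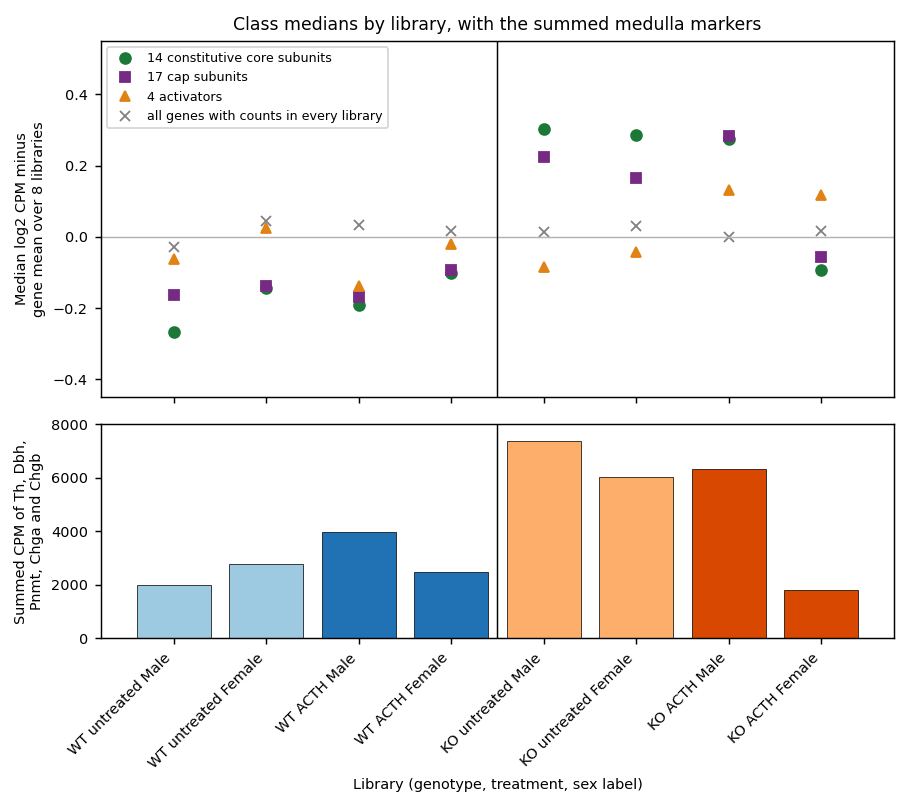
Upper panel: median log2 CPM relative to the gene's mean for constitutive core, cap, activators and all genes in each library. Lower panel: summed CPM of 5 medulla markers in the same libraries, where the 3 knockout libraries with 6029 to 7369 CPM are also those with core and cap medians above 0.

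The 4 activators had a median genotype difference of 0.12 on average and of 0.22 after ACTH, where core and cap also had 0.22 and 0.23, and no test between classes was made. Psme1 stood at 177 and 197 CPM in untreated and 137 and 175 CPM in ACTH-treated wild type, and at 159.8 and 231 CPM in untreated and 196 and 189 CPM in ACTH-treated knockout glands, and Psme2 at 155 and 132 CPM in untreated and 119 and 139.7 CPM in ACTH-treated wild type, and at 147 and 139 CPM in untreated and 145 and 137 CPM in ACTH-treated knockout glands. Both overlapped between genotypes and between treatments. Psme3 stood at 105 and 99.3 CPM in untreated and 107 and 99.1 CPM in ACTH-treated wild type, and at 112 and 88.1 CPM in untreated and 160.1 and 139 CPM in ACTH-treated knockout glands. Both ACTH-treated knockout libraries lay above all 6 others. Within the knockout its ACTH difference was 0.58 and after ACTH its genotype difference was 0.53, while in untreated glands the genotype difference was -0.04. None passed (edgeR adjusted p = 0.999 and 0.561 for the first pair), and the interaction of 0.57 did not pass either (edgeR adjusted p = 1). Psme2 and its left-out namesake Psme2b may share reads, so Psme2 is reported as uncertain in that respect.

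Psme4 (chromosome 11, 30771775 to 30881150) stood at 132 and 200.3 CPM in untreated and 178 and 239.5 CPM in ACTH-treated wild type, and at 141 and 169.6 CPM in untreated and 199 and 202 CPM in ACTH-treated knockout glands. It was higher after ACTH in all 4 pairs of matched genotype and sex label, with 161 ± 30.8 CPM for untreated glands against 205 ± 25.5 CPM for ACTH-treated glands (SD, n = 4). Treatments still overlapped, and the fitted ACTH effect was a log2 difference of 0.36 (SE 0.14, edgeR adjusted p = 0.758). It was the only member with an unadjusted p under 0.05 for ACTH, and with 1 library left out there were 0 to 2 such members. The inhibitor Psmf1 stood at 23.4 and 38.4 CPM in untreated and 26.2 and 46.4 CPM in ACTH-treated wild type, and at 31.1 and 38.8 CPM in untreated and 49.02 and 28.8 CPM in ACTH-treated knockout glands, with no order by genotype or treatment.

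ACTH given 1 hour before harvest left the family without a called member. The average comparison of ACTH with untreated glands called 0 of 48 members in edgeR, where 3 genes in all were called (0.0195%), and 0 in DESeq2 and limma-voom. At an unadjusted p under 0.05 there was 1 member, against 6.11% of all genes. In 0 members did the treatments not overlap, higher or lower, against 2.10% and 1.80% of all genes. The log2 fold change was above 0 in 19 of 48 members, with a median of -0.04 against 0.02 over all genes. Medians were -0.07 for core, -0.04 for cap and 0.11 for the activators. Without ACTH-treated knockout labelled female the number above 0 was 30 and the median 0.05.

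The highest ACTH values after Psma8 were those of Psmb9 and Psme4, and the lowest those of Psmg3, Psmd10 and Psmb5. Psmb9 had 5.04 ± 4.09 CPM for untreated glands against 7.24 ± 3.37 CPM for ACTH-treated glands (SD, n = 4), a log2 difference of 0.59 (SE 0.69, edgeR adjusted p = 0.94). Psmb8 and Psmb10 had fitted ACTH values of 0.32 and -0.17. Psmb5 was lower after ACTH in all 4 pairs, with 196 ± 20.95 CPM for untreated glands against 159.9 ± 25.7 CPM for ACTH-treated glands (SD, n = 4), a log2 difference of -0.29 (SE 0.14, edgeR adjusted p = 0.811). Psmb6 and Psmb7 differed by 0.02 and 0.01 on the log2 scale, both near 0 beside standard errors of 0.15 and 0.16. The chaperone Psmd10, also known as gankyrin, stood at 27.6 and 32.5 CPM in untreated and 30.2 and 22.3 CPM in ACTH-treated wild type, and at 41.7 and 45.3 CPM in untreated and 26.6 and 32.9 CPM in ACTH-treated knockout glands, a log2 difference of -0.37 (SE 0.21, edgeR adjusted p = 0.848). Psmg3 was at a log2 difference of -0.59 (SE 0.46, edgeR adjusted p = 0.903). The alpha subunit Psma4, the cap deubiquitinase Psmd14 and the lid subunit Psmd6 were lower after ACTH in 4 of 4 pairs as well. Their fitted values were -0.23, -0.29 and -0.11. For Psmd6 the wild-type pair labelled female was almost equal, at 130.43 CPM untreated and 130.41 CPM after ACTH. The share of all genes with the same direction in 4 of 4 pairs was not counted, so these orders are description only.

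Within single groups edgeR called no member either. Genotype in untreated glands called 0 members and 0 genes in all (0%) in edgeR, and 0 members in limma-voom. It gave 6 members at an unadjusted p under 0.05, all higher in the knockout (Psma2, Psma5, Psma7, Psmb1, Psmb6 and Psmc4), against 4.84% of all genes in either direction. That count was 0 without untreated wild type labelled male, 0 without untreated knockout labelled male, 1 without untreated knockout labelled female and 3 without ACTH-treated wild type labelled male. DESeq2 called Psma5 alone there, as higher, where it called 0.280% of all genes as higher. Genotype after ACTH called 0 members in each of the 3 tools (edgeR called 0.00651% of all genes), with Psma6 and Psme3 at an unadjusted p under 0.05, against 8.23%. This count of 2 ran from 0 (without untreated knockout labelled male, or either ACTH-treated wild-type library) to 6 (without ACTH-treated knockout labelled female). ACTH in wild type called 0 members and had 0 at an unadjusted p under 0.05, against 2.56%. In the knockout ACTH called 0, with Psma5 (-0.55) and Psme3 (0.58) at an unadjusted p under 0.05, against 4.22%, and 0 to 2 with 1 library left out. The interaction called 0 members in each tool and had 0 at an unadjusted p under 0.05 in edgeR, against 1.84%. The median genotype difference over the members was 0.32 in untreated and 0.20 in ACTH-treated glands, and the activators had -0.02 and 0.22. The value of 0.20 was 0.01 without ACTH-treated knockout labelled male, with 27 of 48 members above 0, and 0.35 without ACTH-treated knockout labelled female. That these differed between treatments was not shown, since the interaction called no member.

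Genes that work with the proteasome but lie outside the symbol rule were read beside it. Of 28 such genes tested, 21 had a genotype difference above 0 (46.5% of all genes did), 6 had an unadjusted p under 0.05, all higher in the knockout (5.33% of all genes), and the median was 0.12. EdgeR called 0 of them and limma-voom 1 as higher (Zfand5, with 0.332% of all genes), and DESeq2 called 3 as higher (Rps27a and Zfand5 among them, with 2.21% of all genes). Zfand5, a zinc-finger protein that binds the proteasome and stimulates it, stood at 376 and 408 CPM in untreated and 581 and 466 CPM in ACTH-treated wild type, against 1024 and 567 CPM and 1161 and 1488 CPM in the knockout. Its fitted difference was 1.18 (SE 0.22, edgeR adjusted p = 0.104), and only the untreated knockout library labelled female lay within the wild-type range. Adrm1, a ubiquitin receptor of the cap, was at 0.48, and the ubiquitin precursor gene Rps27a at 0.55. Another ubiquitin gene, Ubb, was at 0.13, and the 7 genes below 0 included Ddi2 at -0.81 and Ngly1 at -0.35. Nfe2l1, whose product activates proteasome genes when proteasome activity is low, was at 482 ± 57.6 CPM for wild type against 417 ± 21.8 CPM for knockout glands (SD, n = 4), a difference of -0.21 that did not pass (edgeR adjusted p = 0.576). Pomp, the chaperone of core maturation, was at 0.20.

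Genes of interferon response and class I presentation had fitted values below 0 in the knockout, as Psmb9 did. Of 18 such genes, 0 had a genotype difference above 0, 3 had an unadjusted p under 0.05 as lower (Stat2, Gbp2 and Irf7), with a median of -0.61. Of all genes, 46.5% were above 0 and 8.11% were lower at an unadjusted p under 0.05. EdgeR and limma-voom called 0 of them, and DESeq2 called 2 as lower (Stat2 and Gbp2), as it did 3.96% of all genes. The class I genes B2m, H2-K1 and H2-D1 were highest in the liver-rich ACTH-treated wild-type library, at 571, 369 and 255 CPM. In the other wild-type libraries they stood at 150 to 245, 192 to 272 and 93.8 to 167 CPM. The knockout libraries held 157 to 307, 224 to 279 and 126 to 208 CPM. For 16 genes counted in every library, the median knockout difference in matched pairs was -0.30 and -0.41 in untreated glands. After ACTH it was -0.46 labelled male and -0.71 labelled female. Psmb9 and the peptide transporter gene Tap1 are neighbours on chromosome 17 (34182030 to 34187330 and 34187556 to 34197225, mm10), 225 bases apart. Tap1 stood at 35.8 and 16.97 CPM in untreated and 12.9 and 28.4 CPM in ACTH-treated wild type, and at 7.18 and 22.2 CPM and 10.3 and 8.58 CPM in the knockout, and its fitted value was -1.02 (SE 0.46, edgeR adjusted p = 0.385). Both genes were highest in the wild-type libraries rich in kidney or liver markers. In those libraries Psmb9 stood at 10.9 and 10.4 CPM, and in the other wild-type libraries at 3.94 and 5.63 CPM, within the knockout range of 1.46 to 9.65 CPM. Whether kidney or liver cells added to them was not tested.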

How the data were processed

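Per the labels, the submitters sequenced RNA from 1 adrenal gland per library, and the deposited files hold, per transcript, estimated counts and RPKM that the authors computed with Partek 6.6 after TopHat2 2.0.13 and Bowtie2 2.2.5.0 alignment to mm10 and FastQC 0.11, per the submitters' processing notes. Aligner settings, strand and the handling of reads with several matches are not given in the sources used here. Estimated counts were summed over the 28678 transcripts to 18846 symbols and rounded to whole numbers, and RPKM were summed likewise. Genes were filtered with filterByExpr (minimum count 10), scaled by TMM (factors 0.888 to 1.06) and tested with edgeR 4.0.16 in R 4.3.3: genotype, treatment and sex label as terms for the averages, and 4 group means with sex label for the rest, with Benjamini-Hochberg adjustment over all 15361 genes and a call at an adjusted p under 0.05. The p-values set each difference against the spread between animals that the fitted terms leave. This spread was pooled over all groups, which hold 2 animals each, and moderated across genes. Alternatives used DESeq2 1.42.0, limma 3.58.1, other scaling and filters, and each library left out. Leaving out both wild-type libraries with kidney or liver transcripts was chosen after seeing the data. The tests were tested on simulated data. Those data gave all genes the same spread, so they do not show how the tests fare on these libraries. The members and lists were chosen with earlier results of these data known. Members are named by a rule: catalytic pairs, all activators, Psmf1, up to 6 members without overlap between groups, and the 3 highest and 3 lowest fitted changes of each average, with values in every library. Other members and genes were named after their values were seen. CPM are these estimated counts relative to library size after TMM scaling. Sequences are from RefSeq. Some genes and 1 motif of these lists are not reported here.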

Additional observations from a re-analysis of the deposited data

Results flagged for a closer look

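In 6 of the 96 groups of 4 libraries looked at (each member in each genotype), 1 library stood apart from the other 3 by more than Dixon's 95% critical value for the gap over the range, where chance flags about 1 in 20. In the knockout, the ACTH-treated library labelled female was the low one 4 times. It held Psma7 at 173.5 CPM against 234 to 244 CPM in the others, Psmb6 at 131.3 CPM against 166 to 168 CPM, Psmd13 at 104.0 CPM against 142 to 149.96 CPM, and Psmd7 at 123.9 CPM against 151 to 154 CPM. All 4 are core or cap subunits, but so are most members, with 18 core and 21 cap symbols among the 48. The 6 flags in 96 groups are near the rate of chance, and flags of members that vary together are not independent. The same library held the least of the medulla markers. In wild type, the library labelled untreated male was apart for Psma5, at 118.8 CPM against 129.7 to 132 CPM, and for Psmd3, at 127.4 CPM against 108 to 111 CPM. It is the library that was rich in kidney markers and went against its sex label.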

How the results depend on the processing

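The genotype median over the members stayed above 0 under every alternative run, from 0.19 to 0.33 on the log2 scale (core 0.17 to 0.36, cap 0.23 to 0.36, activators 0.05 to 0.21), with 39 to 42 members above 0. The number of members called was 0 in edgeR under each alternative, 4 for genotype and 1 in untreated glands with DESeq2. Over all genes the genotype calls were 4 in edgeR, 41 without the low-count filter, 22 with the robust fit, 108 with limma-voom, 947 with DESeq2, 7 with limma on log2(RPKM + 0.1), and 0 to 190 when a library was left out. ACTH calls were 3, 8, 5, 3 and 123 in the order edgeR, no filter, robust fit, limma-voom and DESeq2. Without the filter the median of all genes was -0.13. The cause of these differences was not tested. Members without overlap between genotypes were 11, 18 without both wild-type libraries rich in kidney or liver markers, and 11 to 20 with 1 library left out.

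ACTH medians ran from -0.14 to 0.05 over the members, from -0.16 to 0.09 in the core, from -0.15 to 0.04 in the cap and from 0.03 to 0.19 in the activators, and the cap median was -0.15 without both wild-type libraries. Some signs reversed. For genotype these were Psma8 at -1.25 with limma-voom and -0.0046 on RPKM, Psmb10 at 0.028 and Psmb8 at 0.14 without both wild-type libraries, and Psmb8 at 0.13 with limma-voom. For ACTH they were Psmb6 at -0.16, Psmb7 at -0.064 and Psmf1 at -0.089 without both wild-type libraries, and Psmb6 at -0.056 and Psmb7 at -0.068 on RPKM. With 1 library left out, genotype values ran from -0.73 to 1.99 for Psma8, -0.23 to 0.0037 for Psmb10, -0.29 to 0.28 for Psmb8, -0.020 to 0.12 for Psme2, -0.14 to 0.013 for Psme4 and -0.080 to 0.43 for Psmf1. ACTH values ran from -0.36 to 4.90 for Psma8, -0.082 to 0.15 for Psmb6, -0.10 to 0.13 for Psmb7, -0.13 to 0.0012 for Psme2 and -0.070 to 0.45 for Psmf1. The labels give no shared replicate numbers, so libraries could be paired by sex label only, and such pairs were described without a test. Sex label, which matches 1 library of each group to 1 of the others, was a term of the fits, and without it 0 members were called. The untreated wild-type library with transcripts against its label counted as male in the fits and in the matched pairs. Those pairs may thus not match sex in every case. The planned pseudocount alternative was not run, since the files hold counts. Depth limits Psma8, Psmb9 and Psmc3ip most.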

Other observations

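For 9 members the deposited estimates were split over more than 1 transcript, and the split of several differed in untreated wild type labelled male. Of Psma3, its main transcript took 44.0% of the gene's estimated count in that library and 77.0% to 93.6% in the other 7. The second transcript of Psme2 took 0.304% there and 13.4% to 35.3% elsewhere, that of Psmd10 took 0.027% there and 8.84% to 36.6% elsewhere, and that of Psmg4 took 0 there and 19.4% to 43.6% elsewhere. Psmf1 differed in another library: its second transcript took 29.8% in the untreated knockout library labelled male and at most 1.946% elsewhere. Psmd4 was divided most evenly, with 61.4% in its main transcript over all libraries, which took 47.1% in the ACTH-treated knockout library labelled male and 53.2% to 76.7% in the others. The gene sums used in all comparisons do not depend on these splits, except through transcript length in RPKM.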
